A study of Yarrowia lipolytica with 4 samples.

Results

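The enzymes described here carry out successive steps of tyrosine breakdown in the oleaginous yeast Yarrowia lipolytica. They are 4-hydroxyphenylpyruvate dioxygenase, homogentisate 1,2-dioxygenase and fumarylacetoacetase, and their genes are 3 of the 6797 genes in the deposited table. The members were picked by gene identifier for steps of 1 route, with their difference between the strains F19 and WLH already known. That difference is therefore given below as a description, without a test.

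RNA was sequenced from 2 libraries of strain F19 and 2 of strain WLH, both made from PO1f, a laboratory strain. F19 came from a genome-wide CRISPR interference library that was screened for resistance to acetic acid and furfural. In such a library each strain carries a guide RNA that brings an inactive Cas9 to its target gene and lowers transcription there. WLH was the control. Cultures of each were kept at 30 °C for 48 h in leucine-free synthetic medium that held 2.4 mM furfural, an aldehyde released when plant biomass is hydrolysed, so every library had furfural. The labels name no target gene for F19, so its repression was not examined. They also leave unsaid whether replicates were grown apart, and p-values therefore cover only a spread between libraries that may be technical. F19 is a single strain, and an effect of its guide cannot be told apart from other differences between the isolates.

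In this route an aminotransferase turns tyrosine into 4-hydroxyphenylpyruvate, and 4-hydroxyphenylpyruvate dioxygenase turns that into homogentisate. Homogentisate 1,2-dioxygenase opens the aromatic ring to give maleylacetoacetate, an isomerase makes fumarylacetoacetate, and fumarylacetoacetase splits it into fumarate, a citric acid cycle intermediate, and acetoacetate. Both dioxygenases are iron enzymes that use molecular oxygen. Homogentisate that is not broken down oxidises to a brown pigment, pyomelanin, which Yarrowia lipolytica is known to form in media with tyrosine. In humans, loss of homogentisate dioxygenase causes alkaptonuria and loss of fumarylacetoacetase causes tyrosinaemia.

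All 3 transcripts were at moderate to high levels in WLH and at low levels in F19. 4-Hydroxyphenylpyruvate dioxygenase, gene-BKA90DRAFT_135911, stood at 209.85 and 186.57 FPKM in WLH replicates 1 and 2 and at 11.92 and 6.53 in F19 replicates 1 and 2. FPKM, as deposited by the authors, divide a gene's counts by its exonic length and by the library total. Placed among all genes by FPKM, this gene was number 717 and 787 from the top in the WLH libraries and number 5202 and 5638 in the F19 libraries. The lowest WLH library lay far above the highest F19 library. Counts are relative to the library, so less of a transcript per cell and fewer cells that make it cannot be told apart.

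Homogentisate 1,2-dioxygenase, gene-BKA90DRAFT_137911, stood at 54.00 and 49.41 FPKM in WLH and at 5.63 and 5.53 in F19. It was number 2373 and 2515 by FPKM in the WLH libraries and number 5703 and 5725 in the F19 libraries. Fumarylacetoacetase, gene-BKA90DRAFT_20373, which the file describes as hypothetical and identifies by its ortholog number K01555, stood at 34.31 and 44.33 FPKM in WLH and at 4.18 and 4.08 in F19. It went from number 3152 and 2713 in WLH to number 5837 and 5847 in F19. For both genes the F19 libraries lay far below the WLH libraries and closer together than those.

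**Figure D1:**
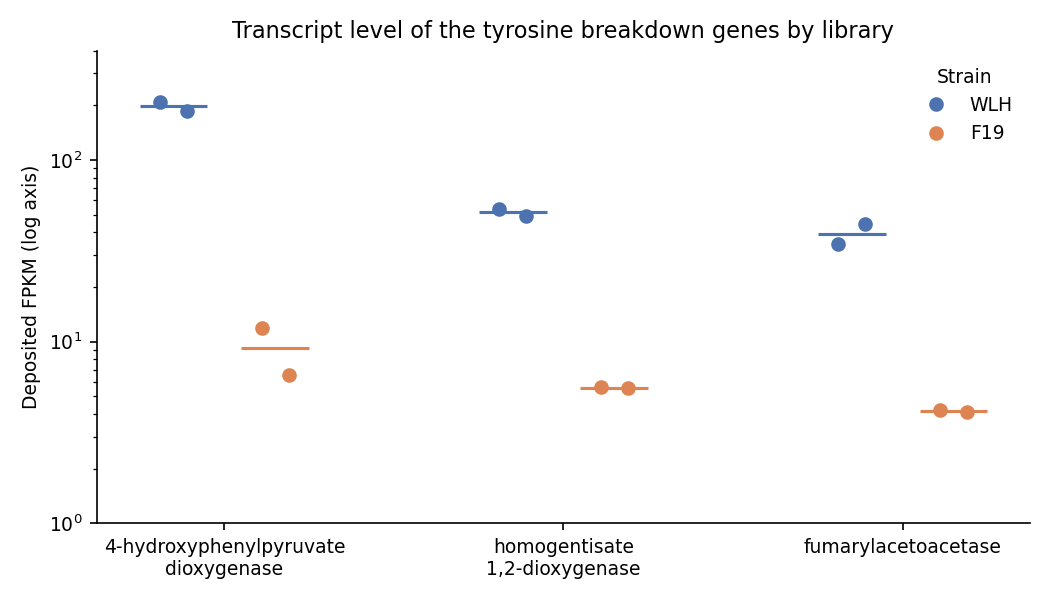
Deposited FPKM (log axis) of the 3 tyrosine breakdown genes in each library. Points are libraries, WLH in blue and F19 in orange, and lines are the mean of 2; in each gene both WLH points lie above both F19 points, and 4-hydroxyphenylpyruvate dioxygenase is highest in each strain.

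The fitted difference was largest for the dioxygenase that begins ring oxidation. In the edgeR fit over all genes, 4-hydroxyphenylpyruvate dioxygenase was 25.3-fold lower in F19, a log2 fold change of -4.66 ± 0.28 (SE; n = 2 each). Homogentisate 1,2-dioxygenase was 10.9-fold lower (-3.44 ± 0.14) and fumarylacetoacetase 11.2-fold lower (-3.48 ± 0.19). In the authors' deposited table the same log2 fold changes were -4.66 ± 0.41, -3.44 ± 0.15 and -3.48 ± 0.19 (SE). Ordered from the lowest log2 fold change of the 6414 genes tested, the members were number 11, 34 and 32. Over all genes tested, 51.4% were called at an adjusted p of 0.05, 25.5% lower and 25.9% higher in F19; since this contrast chose the members, nothing is read from their place against it. With library totals in place of TMM factors, 1066 genes were called lower and 2419 higher.

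Counts behind these values were ample in WLH and modest in F19. 4-Hydroxyphenylpyruvate dioxygenase had 6917 and 4649 counts in WLH and 318 and 168 in F19. Scaled to CPM, counts relative to the library total corrected by TMM factors, the F19 libraries were at 14.9 (95% exact Poisson interval 13.3 to 16.6) and 8.34 (7.13 to 9.70). These intervals do not meet, so the F19 libraries differed from each other by more than counting error. The log2 fold change was -5.14 without F19 replicate 1 and -4.29 without F19 replicate 2. Homogentisate 1,2-dioxygenase had 2050 and 1418 counts in WLH and 173 and 164 in F19, and fumarylacetoacetase 1217 and 1189 against 120 and 113. In CPM the F19 libraries agreed closely for both, at 8.08 and 8.14 for homogentisate 1,2-dioxygenase and at 5.603 and 5.61 for fumarylacetoacetase. Their Poisson intervals were far wider, at 6.92 to 9.37 and 6.94 to 9.49 for the former and 4.65 to 6.7 and 4.62 to 6.75 for the latter. So this closeness does not measure the precision of the values.

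The order of the levels per length was 4-hydroxyphenylpyruvate dioxygenase, homogentisate 1,2-dioxygenase, fumarylacetoacetase in each of the 4 libraries. The FPKM of 4-hydroxyphenylpyruvate dioxygenase was 3.89 and 3.78 times that of homogentisate 1,2-dioxygenase in WLH, and 2.12 and 1.18 times in F19. The ratio of homogentisate 1,2-dioxygenase to fumarylacetoacetase was 1.57 and 1.11 in WLH and 1.35 and 1.36 in F19. So the later pair kept F19 ratios within the range of the WLH ratios, while the first ratio was lower in both F19 libraries than in either WLH library. In F19 replicate 2 the first 2 genes of the order were at 6.53 FPKM (Poisson interval 5.58 to 7.60) and 5.53 (4.72 to 6.44), which overlap. Homogentisate 1,2-dioxygenase and fumarylacetoacetase overlap in their intervals in both F19 libraries, at 4.82 to 6.53 against 3.47 to 5.0 in replicate 1 and 4.72 to 6.44 against 3.36 to 4.91 in replicate 2. Overlap of such intervals is not a test of a difference, and the order of this pair in F19 was not tested.

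**Figure D2:**
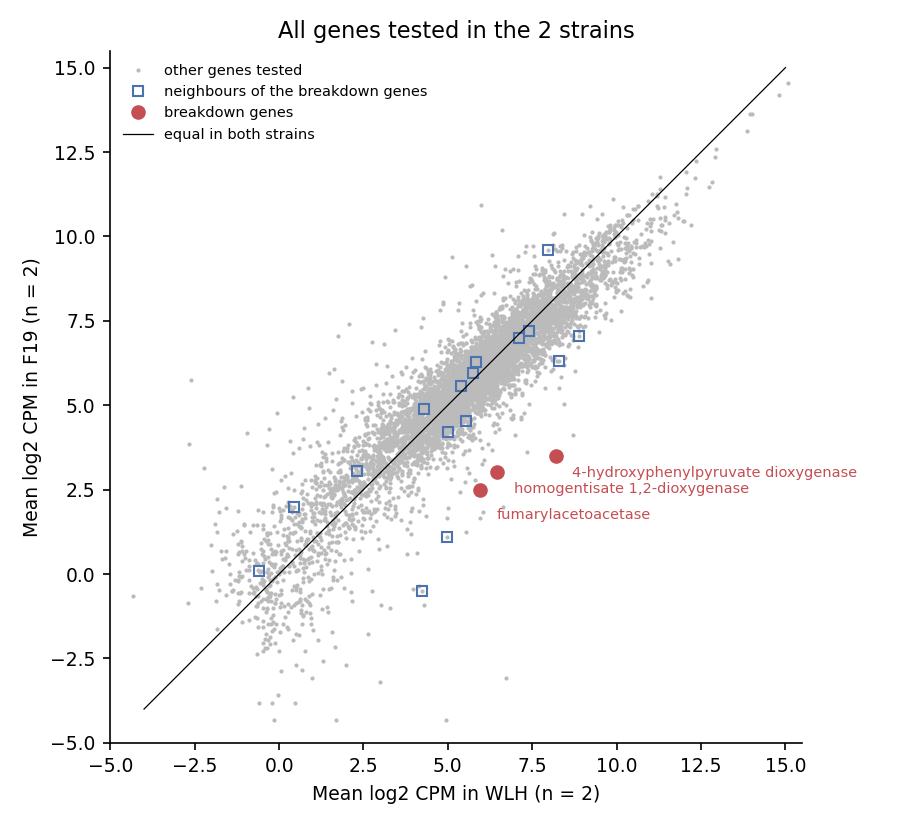
Mean log2 CPM of each gene tested in WLH (horizontal) and F19 (vertical), n = 2 libraries each; the line marks equal levels, red points are the breakdown genes and blue squares the 16 genes around them. The breakdown genes lie below the cloud of other genes, as do 2 of their neighbours, while most neighbours lie near the line.

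The positions of the genes were not used to choose them. Homogentisate 1,2-dioxygenase lies at 220293 to 221863 on the plus strand of scaffold ML756004.1, and fumarylacetoacetase at 218650 to 220117 on the minus strand of the same scaffold. The genes stand back to back, with 175 bases between their annotated starts. Coordinates are those of the deposited table, whose genome build is not stated by the labels or headers. Across the table, 1928 neighbouring pairs are divergent in this way, with a median of 1145 bases between them, and 9.23% are at least as close. 4-Hydroxyphenylpyruvate dioxygenase lies elsewhere, at 191081 to 192444 on the plus strand of ML755991.1. Each of the 3 genes is annotated as a single exon, since its exonic length of 1364, 1571 or 1468 bases equals its span.

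The genes on either side of 4-hydroxyphenylpyruvate dioxygenase were low in F19 too. On its left, 904 bases away on the same strand, BKA90DRAFT_135910 encodes a hypothetical protein. Its libraries were at 31.6 and 31.0 CPM in WLH and at 2.80 and 1.54 in F19. It fell 14.3-fold, with an adjusted p of 0.000304 and a log2 fold change of -3.84 ± 0.28 (SE). On the right, 1073 bases away and also on the plus strand, BKA90DRAFT_135913 encodes a cytochrome P450, a family of haem enzymes that oxidise small molecules. It was at 19.7 and 18.2 CPM in WLH and at 0.607 and 0.695 in F19, which is 13 and 14 counts. It fell 28.9-fold (-4.85 ± 0.25; adjusted p = 0.000151). The FPKM of this P450 gene in F19 were only 0.36 and 0.40. Its log2 fold change was -4.30 in limma on log2(FPKM + 0.1) and -2.91 on log2(FPKM + 1). The size of its fall therefore depends on how low values are handled. For both neighbours the strains lay far apart.

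The next gene on the right, BKA90DRAFT_135915, an NADP-dependent oxidoreductase named after its values were seen, fell 3.50-fold. It went from 435 and 512 CPM in WLH to 159 and 112 in F19 (adjusted p = 0.000832). Beyond these no gene within 5 places on either side was called lower. The genes named next in this paragraph were picked after their values were seen. BKA90DRAFT_135920, the fifth on the right, had a log2 fold change of -0.73 ± 0.30 and did not pass (adjusted p = 0.0793). BKA90DRAFT_135909, an ACT domain protein second on the left, had a log2 fold change of 0.60 ± 0.25 and BKA90DRAFT_135918, the third on the right, one of 0.79 ± 0.29, and neither passed (adjusted p = 0.0845 and 0.053). Of the 10 genes within 5 places of 4-hydroxyphenylpyruvate dioxygenase, all tested, 3 fell, 1 rose and 6 did not pass, against 25.5% called lower and 25.9% higher over all genes.

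**Figure D3:**
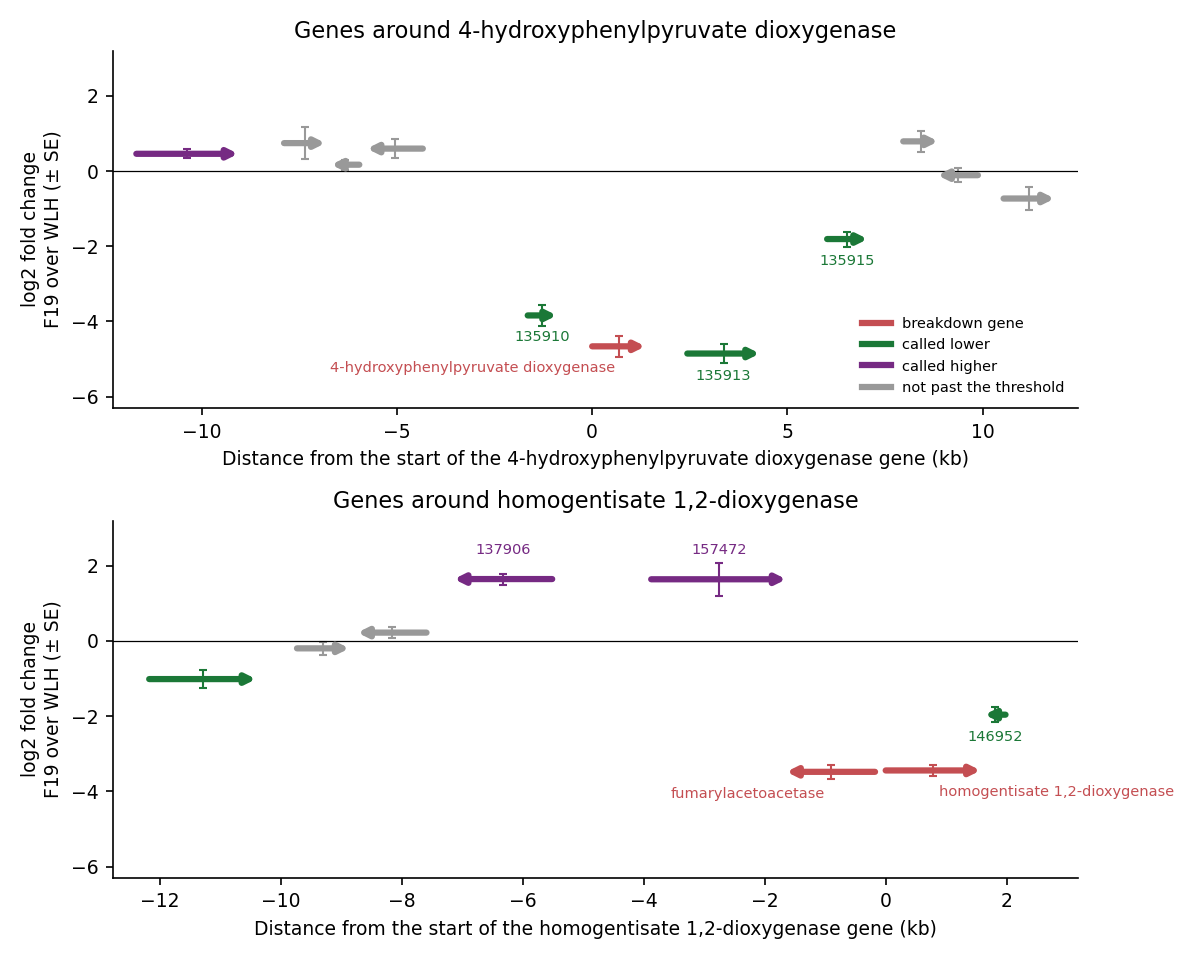
Log2 fold change, F19 over WLH, with its SE, of genes around 4-hydroxyphenylpyruvate dioxygenase (top) and the divergent pair (bottom), against distance from the named gene's start in kb; arrows span each gene and point along its strand, and numbers are the ends of gene identifiers. The 3 lowest genes of the top panel are adjacent, while around the divergent pair the nearest gene on the left is higher in F19 and the nearest on the right is lower.

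Around the divergent pair the neighbours went both ways. On the left of fumarylacetoacetase, BKA90DRAFT_157472, a hypothetical protein on the opposite strand, ends at the base next to the annotated end of fumarylacetoacetase, with 0 bases between them. It rose from 1.04 and 1.66 CPM in WLH to 5.51 and 2.78 in F19, with a log2 fold change of 1.64 ± 0.44 and an adjusted p of 0.0189. The adjusted p was 0.0941 when F19 replicate 1 was left out, 0.14 when WLH replicate 1 was and 0.0646 when WLH replicate 2 was, so each of these ended the call. No step that marks the strand is described, so reads of transcripts running past these ends cannot be told apart. On the right of homogentisate 1,2-dioxygenase, 64 bases away and pointing towards it, BKA90DRAFT_146952 is annotated as the C-terminal domain of a 70 kD heat shock protein, a chaperone family. It fell 3.89-fold, from 324 and 302 CPM in WLH to 96.4 and 64.3 in F19 (adjusted p = 0.000737). It is the only gene that the table lists to the right on this scaffold. Of the 6 genes around the pair, 2 fell, 2 rose and 2 did not pass, against 25.5% called lower and 25.9% higher over all genes. One of the rises, singled out after its values were seen, was a 3.13-fold rise of BKA90DRAFT_137906, a glycolipid mannosyltransferase of sugar chain synthesis (adjusted p = 0.000526). Over all 16 neighbours 5 fell and 3 rose, beside these shares, with a median log2 fold change of 0.03 beside 0.01 over all genes tested. The rises numbered 1 without WLH replicate 1 or WLH replicate 2, and 7 with library totals, where 5 fell.

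The aminotransferases that could feed the route did not pass the test. 4 other genes joined the list for tyrosine and phenylalanine breakdown, each by ortholog number, and 0 of 4 were called in edgeR in either direction. At an unadjusted p under 0.05 edgeR also had 0, DESeq2 called 0 and limma on FPKM called 1 higher. BKA90DRAFT_138687, with the ortholog number of the aromatic aminotransferase ARO8 of Saccharomyces cerevisiae, was at 300.0 and 310.1 CPM in WLH and at 248 and 299.9 in F19. Its log2 fold change was -0.16 ± 0.15, and it turned positive (0.08) with library totals in place of TMM factors. BKA90DRAFT_134868, with the number of ARO9, was at 93.1 and 75.5 CPM in WLH and at 48.0 and 79.9 in F19 (-0.40 ± 0.24; adjusted p = 0.198). The F19 libraries of this gene lay on both sides of the lower WLH library. It was called lower without F19 replicate 2 (-0.80; adjusted p = 0.0121).

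The remaining aminotransferases act on aspartate and can also take aromatic substrates. The mitochondrial form BKA90DRAFT_133013 had a log2 fold change of 0.17 ± 0.15 (adjusted p = 0.38). It was called higher with library totals (0.40; adjusted p = 0.0493), where the median of all genes also moved from 0.01 to 0.24. The cytosolic form BKA90DRAFT_143435 had a log2 fold change of -0.20 ± 0.16 (adjusted p = 0.338), which turned to 0.04 with library totals. The median of these 4 genes was -0.18. For phenylalanine hydroxylase (K00500), maleylacetoacetate isomerase (K01800) and tyrosine aminotransferase of the animal type (K00815), 0 genes of the table carried the ortholog number. The isomerase step between the members was therefore not analysed here.

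The list for other fates of tyrosine and 4-hydroxyphenylpyruvate held 5 genes outside the members, of which 4 were tested. Of these 1 fell, 1 rose and 2 did not pass, with a median of -0.14, against 25.5% lower and 25.9% higher of all genes. BKA90DRAFT_141574, named after its values were seen, is among those that did not pass (0.14 ± 0.20). It carries K01568, the ortholog number of pyruvate decarboxylase, so the counts and the median do not describe fates of tyrosine alone. BKA90DRAFT_16647, a thiamine diphosphate enzyme with the ortholog number of indolepyruvate decarboxylase, fell 3.44-fold. It went from 244.2 and 333 CPM in WLH to 87.8 and 79.8 in F19 (-1.78 ± 0.18; adjusted p = 0.000684). BKA90DRAFT_86768, a copper amine oxidase, which oxidises primary amines such as tyramine, rose 3.85-fold. It went from 134 and 135 CPM in WLH to 428 and 607 in F19 (1.94 ± 0.19; adjusted p = 0.000665). Other copper amine oxidases with its ortholog number, named after their values were seen, were not called. BKA90DRAFT_104320 had a log2 fold change of -0.42 ± 0.18 (adjusted p = 0.0898), and BKA90DRAFT_159304, with 0 to 9 counts, was not tested. For BKA90DRAFT_16647 and BKA90DRAFT_86768 the strains did not overlap. With 2 libraries a strain this says little, as BKA90DRAFT_138687 and BKA90DRAFT_133013 also lacked overlap and were not called.

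Genes that take or make the end products were lower in part. Of 6 genes for the use of fumarate and acetoacetate, 4 fell, 0 rose and 2 did not pass, with a median of -0.60, against 25.5% called lower and 25.9% higher over all genes. In this list 0 were higher in edgeR at an unadjusted p under 0.05, in DESeq2 or in limma. The peroxisomal acetoacetyl-CoA thiolase BKA90DRAFT_136867, which splits acetoacetyl-CoA, fell 2.58-fold (-1.37 ± 0.15; adjusted p = 0.00088). A thiolase with the same ortholog number, BKA90DRAFT_139233, fell 1.80-fold (adjusted p = 0.00637), a call lost without WLH replicate 2 (0.059). BKA90DRAFT_116417, with the ortholog number of fumarate hydratase, which turns fumarate into malate, fell 1.62-fold (adjusted p = 0.0172). Its adjusted p ran from 0.00119 to 0.114 over the alternatives, and 4 of them lost the call. The list had 1 fall without WLH replicate 2 and 2 with library totals.

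Some genes of aromatic amino acid synthesis were lower in F19. Of 21 genes on that list, 8 were called lower and 1 higher, and 12 were not called, with a median of -0.33; over all genes 25.5% were called lower and 25.9% higher. The list holds 9 genes that joined by description only, most of them enzymes of sulfur and threonine metabolism described as resembling the tryptophan synthase beta subunit. Among the 12 with a fitting ortholog number, 4 fell and 0 rose, with a median of -0.31. BKA90DRAFT_135866, a DAHP synthase, the first enzyme of the shikimate route, fell 2.34-fold, from 66.5 and 96.3 CPM in WLH to 30.6 and 39.0 in F19 (-1.22 ± 0.21; adjusted p = 0.00339). Genes with the same ortholog number and higher levels, named after their values were seen, fell less. BKA90DRAFT_140923 fell 1.43-fold (adjusted p = 0.0201) and BKA90DRAFT_141456 fell 1.35-fold (adjusted p = 0.0308). All of these DAHP synthase genes are among the 4 falls with a fitting ortholog number. BKA90DRAFT_134253, described as hypothetical, carries the ortholog number of prephenate dehydrogenase of tyrosine synthesis. Singled out after its values were seen, it had 62.3 and 62.3 CPM in WLH and 65.0 and 60.3 in F19. The other large falls of the list were BKA90DRAFT_161479 (2.49-fold) and BKA90DRAFT_138176 (2.14-fold), which carry the ortholog numbers of cystathionine beta-synthase and cysteine synthase, enzymes of sulfur amino acid synthesis. The falls on this list numbered 14 without F19 replicate 2, 4 without WLH replicate 1, 3 without WLH replicate 2 and 4 with library totals, and the rise was lost without F19 replicate 2, WLH replicate 1 or WLH replicate 2.

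Breakdown of tryptophan, the other aromatic amino acid with ring-cleaving dioxygenases in its route, went both ways. Among the 5 genes of its list 3 fell and 1 rose, while 1 stayed under the threshold, with a median of -0.68, against 25.5% called lower and 25.9% higher over all genes. Indoleamine 2,3-dioxygenase, BKA90DRAFT_133936, which opens the indole ring, rose 1.73-fold, from 126 and 112 CPM in WLH to 204 and 208 in F19 (0.79 ± 0.13; adjusted p = 0.00271). Kynureninase, BKA90DRAFT_135836, fell 2.04-fold (adjusted p = 0.0036), and 3-hydroxyanthranilate 3,4-dioxygenase, BKA90DRAFT_92517, fell 1.70-fold (adjusted p = 0.00429). Of 8 further genes described as dioxygenases, those 2 of tryptophan breakdown among them, 3 fell, 1 rose and 4 did not pass, with a median of -0.45, beside the same shares over all genes. The largest change there was that of BKA90DRAFT_143124, described as 2-nitropropane dioxygenase, an enzyme that oxidises nitroalkanes, which fell 2.88-fold (-1.53 ± 0.14; adjusted p = 0.00059).

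**Figure D4:**
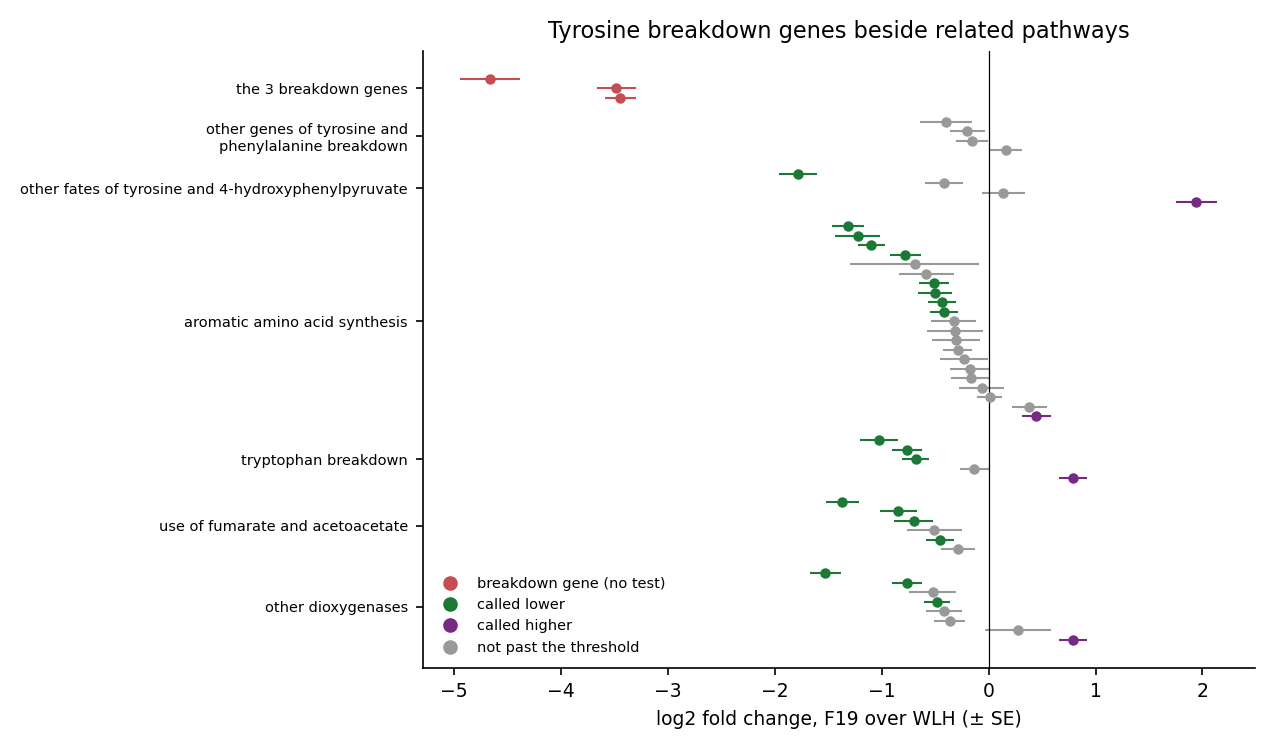
Log2 fold change, F19 over WLH, with its SE, of the 3 breakdown genes (red, no test) and of the other genes of each list (green called lower, purple called higher, grey not past the threshold). Over all lists the other genes lie on both sides of 0, the amine oxidase at 1.94 among them, and a gene on more than 1 list is drawn in each.

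Over the lists together, 46 of 47 genes outside the members were tested; 18 fell, 3 rose and 25 did not pass, beside 25.5% called lower and 25.9% higher of all genes tested. This pool keeps the 9 genes of the synthesis list that joined by description only, most of them of sulfur and threonine metabolism. BKA90DRAFT_161479 and BKA90DRAFT_138176 are among its falls and BKA90DRAFT_135781 is among its rises. The 8 further dioxygenases also joined by description only. The numbers therefore do not describe aromatic pathways alone. The median of the pool was -0.42 beside 0.01 for all genes. With library totals 11 fell and 5 rose, and without WLH replicate 2 there were 9 falls. The file's own tyrosine metabolism pathway, looked up after the values were seen, holds 18 genes beside the members, of which 16 were tested. Their log2 fold changes ran from -1.33 for the aldehyde dehydrogenase BKA90DRAFT_143368 to 1.94 for the amine oxidase BKA90DRAFT_86768, with a median of -0.41. Among these 16, 1 was at least 2-fold lower and 2 at least 2-fold higher in F19. The share of all genes past 2-fold was not counted, so nothing is read from these numbers.

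The 5 named genes whose pattern over the 4 libraries was most like that of the members carried descriptions outside tyrosine breakdown. Genes described as hypothetical, uncharacterized or unknown were passed over whatever their ortholog number. A gene described as fumarylacetoacetase is in the file could therefore not be among them. Likeness was the Euclidean distance between log2 CPM profiles, each centred on its own mean, and the mean profile of the members, over 4 libraries. The members themselves lay at 0.94, 0.49 and 0.51 from their mean, in the order of the route. Of all other tested genes the nearest was BKA90DRAFT_135910, the left neighbour of 4-hydroxyphenylpyruvate dioxygenase, at 0.41, and the P450 on the right was number 19 at 0.95. The 5 nearest that were not passed over were the transporter BKA90DRAFT_135480 of the major facilitator superfamily (0.47), the cupin protein BKA90DRAFT_157117 (0.61), the ammonium transporter BKA90DRAFT_132300 (0.69), the glutathione S-transferase BKA90DRAFT_136399 (0.70) and the amino acid permease BKA90DRAFT_154536 (0.72). They were number 4, 6, 8, 10 and 12 of all other tested genes. Apart from BKA90DRAFT_135910, the genes passed over between them were not examined. Maleylacetoacetate isomerases of other organisms belong to the glutathione S-transferase family, and the table does not say whether BKA90DRAFT_136399 is one; its ortholog number, K00799, is that of glutathione S-transferase. It was at 134 and 193 CPM in WLH and at 10.1 and 14.8 in F19. BKA90DRAFT_157117 was at 46.5 and 46.5 CPM in WLH and at 3.13 and 1.69 in F19. BKA90DRAFT_154536, of a family that brings amino acids into the cell, was at 58.3 and 59.6 CPM in WLH and at 8.03 and 4.07 in F19. BKA90DRAFT_135480 and BKA90DRAFT_132300 rest on 1 to 3 counts in each F19 library, so their profiles are imprecise. With 2 strains such likeness mostly ranks genes by the size of their strain difference.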

How the data were processed

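The tools named in the submitters' processing notes are HISAT2 2.2.1, HTSeq 0.6.1, cutadapt 1.9.1 and DESeq2 (no version); their settings, the strand mode and the build are not stated there. The authors deposited raw counts and FPKM per gene and library, and a table of genes they called significant with log2 fold changes. The WLH replicate 1 column is spelled with a letter I for the digit, and 0 sample columns were left unmapped. Of the 6800 features, 3 name no gene, took 0.135% to 0.387% of counts and were left out. Totals were 18268878 to 24165223 counts per library.

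Deposited counts were tested with edgeR 4.0.16 (R 4.3.3): filterByExpr (6414 genes, all 3 members included), TMM factors, the quasi-likelihood test (two-sided) with strain as the term and all 4 libraries, and Benjamini-Hochberg adjustment over all genes tested at 0.05. The SE was taken as the size of the log2 fold change over the square root of F. Poisson intervals (95%) cover counting error only. Alternatives used DESeq2 1.42.0, limma 3.58.1 on log2(FPKM + 1) or log2(FPKM + 0.1), where the mean FPKM reached 1 or for every gene above 0, other scalings and filters, a robust fit, the replicate number as a block, and each library left out. The tools were also run on simulated counts with far fewer changed genes than are called here, so nothing about these data is drawn from that run.

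Members and lists were chosen with earlier results of these data known. List genes joined by ortholog number or description; a list for further proteins of the fumarylacetoacetase family matched 0 genes. Named genes are the members, the rest of their breakdown list, up to 3 genes with the largest called changes per other list and the nearest gene on each side of a member. The 5 genes with the nearest profile and a description other than hypothetical, uncharacterized or unknown are named too. Others are said to be chosen after their values were seen. Profiles used log2 CPM with a prior count of 1. Of the identifiers, 0 matched the reference gene table. No sequence was used.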

Additional observations from a re-analysis of the deposited data

How the results depend on the processing

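The 3 members were lower in F19 under each of the 14 alternatives, with log2 fold changes from -5.14 to -4.29 for 4-hydroxyphenylpyruvate dioxygenase, -3.51 to -3.0005 for homogentisate 1,2-dioxygenase and -3.65 to -2.96 for fumarylacetoacetase. Homogentisate 1,2-dioxygenase moved by more than its replicate spread with library totals (-3.21) and in limma (-3.0005 with a pseudocount of 1, with or without a filter, and -3.19 with 0.1), and fumarylacetoacetase in limma (-2.96 and -3.21). For 25 other named genes, 324 of 346 values kept direction and call; 8 lost the call, 6 gained it and 8 changed sign. The sign changes were those of BKA90DRAFT_138687 (0.0795 with library totals; 0.0713, 0.0717 and 0.0713 in limma with pseudocounts of 1, 0.1 and without a filter) and BKA90DRAFT_143435 (0.0391; 0.0346, 0.0347 and 0.0346), neither called in any fit.

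With library totals 1066 genes were called lower against 1635. The counts were then 1 higher in tyrosine breakdown, 4 lower and 2 higher in aromatic synthesis, 2 lower in fumarate use, 11 lower and 5 higher over all lists, and 7 higher among neighbours. The limma fits called 1056, 1052 and 1071 genes lower (pseudocount 1, 0.1 and no filter), with the same 1, 4 and 2 for tyrosine breakdown and aromatic synthesis, 5 higher over all lists and 6 higher among neighbours; without a filter fumarate use had 2 lower and all lists 11. Both settings leave the median of all genes at 0.24 and 0.23.

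Leaving out 1 library gave 1670 to 3121 calls against 3294, 860 to 1587 lower and 810 to 1534 higher; a lone library is taken to vary like the other strain. Lower calls ran from 0 to 1 in tyrosine breakdown, 3 to 14 in aromatic synthesis, 1 to 4 in fumarate use and 9 to 23 over all lists; higher calls ran from 0 to 2 in aromatic synthesis and 1 to 3 among neighbours. The replicate block called 1 gene of tyrosine breakdown lower, BKA90DRAFT_134868 (adjusted p = 0.0368), and 5 neighbours higher, and gave 3369 calls in all. Replicate numbers share no stated culture or day, and deviations of same-numbered libraries correlated at -0.085 across genes, so the block is not taken as a pairing. The cause of these shifts was not tested. Depth limits the F19 values of the P450 gene, with 13 and 14 counts.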
